A study of Mus musculus with 2 samples.

Results

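Elastic fibre genes were examined in single-nucleus RNA sequencing data of the mouse heart, as a set of 10 genes chosen by symbol: the fibrillins Fbn1 and Fbn2, elastin (Eln), the fibulins Fbln1, Fbln2 and Fbln5, and the latent TGF-β binding proteins Ltbp1, Ltbp2, Ltbp3 and Ltbp4. All 10 were among the 32589 genes of the files, and each had UMIs (unique molecular identifiers, counted as single captured RNA molecules) in both libraries. The study set hearts of male C57BL/6 mice treated with PBS (control) against hearts of mice given an anti-mouse PD-1 antibody (PD-1 inhibitor) at 5 mg/kg into the peritoneum on days 1 and 14 of a cycle of 28 days, from 8 weeks of age. Each group had 1 library, and how many hearts it held was not given in the sources used here. The 2 treatments could therefore not be compared against a spread between animals, no test between them was possible, and the 95% intervals given below hold counting error and nothing else.

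Elastic fibres let arteries, heart valves and the connective tissue of the heart wall stretch and recoil. They form when elastin is laid down on a scaffold of fibrillin microfibrils, a step that fibulins such as fibulin-5 help to organise, and is then crosslinked by lysyl oxidases. Latent TGF-β binding proteins are relatives of the fibrillins that sit in the same matrix. All but LTBP-2 tether inactive TGF-β there, which couples the elastic matrix to a growth factor that drives fibroblasts to make more matrix. In the heart, fibroblasts, vascular smooth muscle and some endothelial cells are known sources of these proteins.

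There were 9522 control nuclei after filtering, holding 12103951 UMIs at a median of 1012 per nucleus, and 7644 PD-1 inhibitor nuclei, holding 10290085 at a median of 1055. Levels are given as CPM, the UMIs of a gene per 1000000 UMIs of the same group of nuclei. Clustering without the 10 genes gave 21 clusters, of which 20 were named by marker genes as 10 cell types, among them fibroblasts, endothelial cells (ECs), mural cells and mononuclear phagocytes (MPs). Splitting fibroblasts, ECs and mural cells into their clusters gave 17 groups of nuclei. The 3 fibroblast clusters are called by leading genes: Rgs17 Eya2 (1642 control and 1176 PD-1 inhibitor nuclei), Cilp Myoc (732 and 715) and Wif1 Chad (102 and 81). Their 5 leading genes were Rgs17, Eya2, Pcdh9, Adm and Svep1, then Cilp, Myoc, Cd248, Pi16 and Islr, then Wif1, Chad, B4galnt3, Kcnma1 and Pdzrn4. The Wif1 Chad cluster had only 5 of the 13 fibroblast markers, against 12 in each of the others. Of the 3 fibroblast names, its name is the least certain. Among the EC clusters, lymphatic ECs had 4 of the 12 EC markers and valve ECs 7. Endocardial and capillary ECs had 10 and arterial ECs 9. A total of 48 barcodes occurred in both libraries, and leaving those nuclei out (decided once the data had been seen) moved no level, share or ratio beyond its counting interval. Immediate early genes stood apart between the libraries: their summed level in fibroblasts was 1365 CPM in control nuclei and 552 CPM in PD-1 inhibitor nuclei, with all 8 genes detected. The part of this difference in the results below was not tested.

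The promoters of Fbln2, Fbln5 and Ltbp4 are shown because these were the members with the highest PD-1 inhibitor over control ratios in fibroblasts. RefSeq's promoter table for GRCm38.p6 held 8 of the 10 members, with no entry for Fbn2 or Eln. Each stretch has 300 bases around the first listed transcription start (of 1 for Fbln2, 2 for Fbln5 and 3 for Ltbp4), read 5′ to 3′ on the gene's strand, and capitals mark the E-box CANNTG, the letters that basic helix-loop-helix factors such as the E protein TCF12 are known to bind.
Fbln2, chr6:91212514-91212813, plus strand: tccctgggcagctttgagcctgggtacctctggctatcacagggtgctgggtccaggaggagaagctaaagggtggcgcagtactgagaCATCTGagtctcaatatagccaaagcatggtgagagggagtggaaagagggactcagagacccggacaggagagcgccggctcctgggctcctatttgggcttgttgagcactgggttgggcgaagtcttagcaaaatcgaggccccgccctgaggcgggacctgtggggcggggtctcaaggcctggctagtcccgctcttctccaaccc
Fbln5, chr12:101819070-101819369, minus strand: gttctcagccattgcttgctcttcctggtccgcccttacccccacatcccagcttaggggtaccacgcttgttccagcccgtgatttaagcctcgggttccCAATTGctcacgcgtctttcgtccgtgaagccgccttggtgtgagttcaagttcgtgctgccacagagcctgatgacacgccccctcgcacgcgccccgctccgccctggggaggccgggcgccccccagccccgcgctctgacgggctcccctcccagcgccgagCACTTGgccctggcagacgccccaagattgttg
Ltbp4, chr7:27337563-27337862, minus strand: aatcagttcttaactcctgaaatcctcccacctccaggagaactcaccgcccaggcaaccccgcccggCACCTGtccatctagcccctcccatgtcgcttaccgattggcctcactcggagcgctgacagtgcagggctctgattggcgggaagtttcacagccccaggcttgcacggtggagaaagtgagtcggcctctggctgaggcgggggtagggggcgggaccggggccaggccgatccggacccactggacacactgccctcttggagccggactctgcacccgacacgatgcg
The Fbln2 stretch held 1 E-box, the Fbln5 stretch 2 and the Ltbp4 stretch 1. Of 32851 distinct promoter stretches in the table, 72.3% held at least 1, so that a match sets these genes apart from few others. The GC box GGGCGG, searched on both strands, occurred 2, 2 and 3 times in the 3 stretches and in 35.7% of all promoters. Neither the TATA box TATAAA nor the AP-1 site TGANTCA occurred in any of the 3. They were found in 13.6% and 7.81% of all promoters. These matches describe letters and not bound sites.

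Fibroblasts held most of the elastic fibre transcripts. Of the 37442 control UMIs of the 10 genes, 57.0% lay in fibroblasts (interval 56.5 to 57.5%), which held 24.7% of all UMIs. Of the 37041 PD-1 inhibitor UMIs it was 53.9% (53.4 to 54.4%), against 24.2% of all UMIs. The share was highest for Fbn2, at 82.5% and 81.6%, and lowest for Ltbp1, at 40.6% and 38.2%, and Ltbp3, at 38.8% and 41.1%. Endothelial cells held the next largest part, 22.8% and 25.7% of the UMIs of the set, a little under their 24.6% and 28.2% of all UMIs. The endothelial part was largest for Ltbp1 (31.9% and 39.1%) and Ltbp4 (34.6% and 37.6%). Mesothelial cells, the lining of the heart's outer surface, held 19.3% and 25.8% of the Fbln1 UMIs. The mesothelial share of Eln UMIs went from 6.74% (control) to 13.7% (PD-1 inhibitor), while the mesothelial share of all UMIs went from 6.57% to 10.05%.

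**Figure D1:**
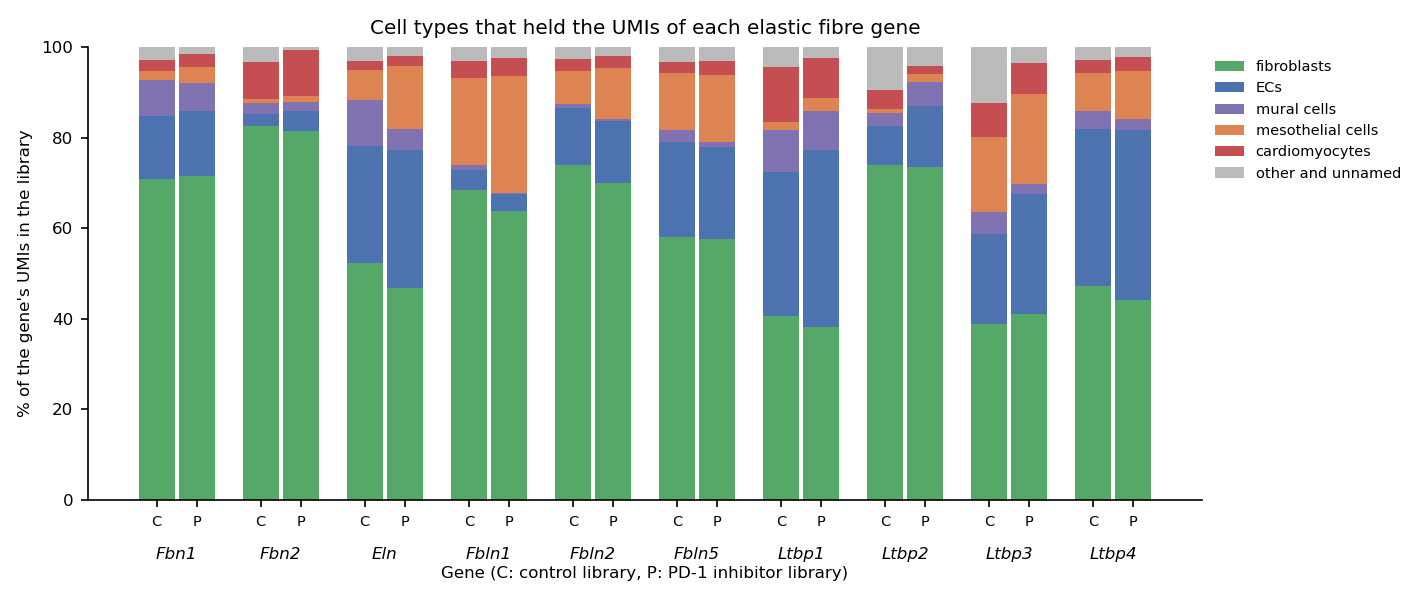
Percent of each gene's UMIs (y axis) that lay in each cell type (colours), with the control (C) and PD-1 inhibitor (P) library side by side for each of the 10 genes. Fibroblasts hold 38.2 to 82.5% of every gene, ECs hold 34.6 and 37.6% of Ltbp4, and for Ltbp1 39.1% in the PD-1 inhibitor library against 38.2% in fibroblasts, and the mesothelial part of Eln goes from 6.74 to 13.7%.

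Levels of different genes were set side by side only per kb of gene span, since nuclear RNA holds introns and long genes collect more reads. In fibroblasts the order by CPM per kb began in both libraries with Ltbp4 (51.6 control, 65.2 PD-1 inhibitor) and Eln (29.6 and 29.2). Fbln2 (15.3 and 19.1), Ltbp3 (12.0 and 13.4), Fbln1 (8.55 and 10.2) and Fbn1 (7.46 and 7.48) made the middle of the order. Fbln5 followed (2.86 and 4.16), and Ltbp1 (0.872 and 0.785), Fbn2 (0.804 and 0.917) and Ltbp2 (0.639 and 0.539) came last. Only Ltbp1 and Fbn2 changed places between the libraries.

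The share of nuclei with a UMI, which is not scaled by gene span and so gives no order of genes, was taken after each nucleus was thinned to 500 UMIs, which left none out. T and B cells, which are not known to build elastic fibres, served as background, with median depths of 909 and 876 UMIs against 1043 and 1086.5 in fibroblasts. For Ltbp4 the thinned share in fibroblasts was 45.3% of control and 51.5% of PD-1 inhibitor nuclei (61.7% and 68.8% before thinning), against 5.06% and 6.91% in T and B cells. For Fbn1 it was 43.4% and 43.7% (63.2% and 64.1% before thinning), against 4.58% and 4.73%. For Eln it was 35.9% and 35.5% (53.4% and 53.3% before thinning), against 4.34% and 6.18%. At the low end, Fbn2 had 5.53% and 6.74% (9.25% and 11.1% before thinning) against 0.482% and 0 of 275 nuclei, which allows a share of up to 1.09% (3 counts of the total). Ltbp2 had 2.02% and 1.27% (3.59% and 2.59% before thinning) against 0 of 415 and 0 of 275 nuclei, which allows up to 0.723% and 1.09%. In the Cilp Myoc cluster, 54.0% of control and 58.5% of PD-1 inhibitor nuclei held UMIs of at least 3 of the 10 genes after thinning (84.3% and 87.7% before). The corresponding thinned shares were 30.7% and 34.7% in the Rgs17 Eya2 cluster (61.0% and 62.6% before) and 0.241% and 0.364% in T and B cells (1.69% and 2.18% before).

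**Figure D2:**
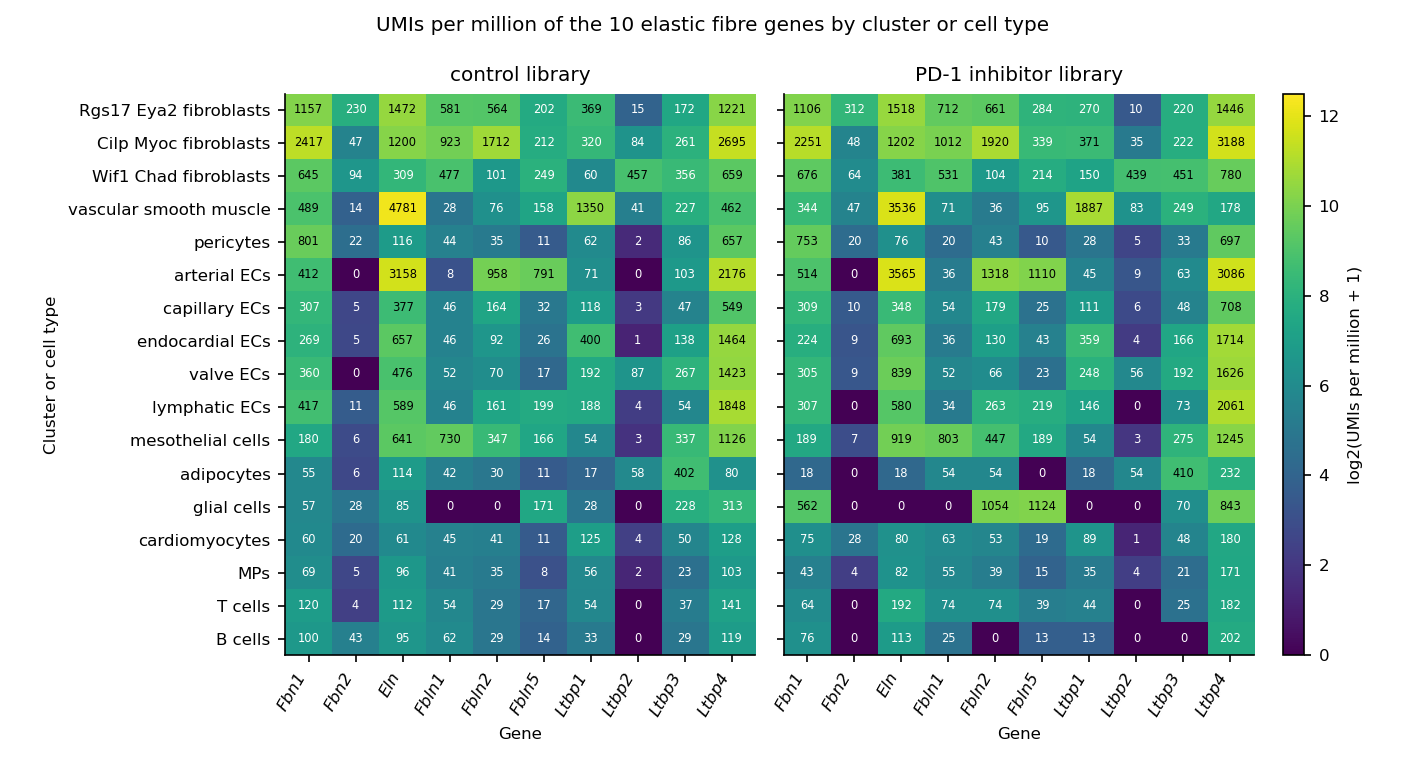
CPM of each of the 10 genes (columns) in the 17 clusters or cell types (rows), control library left and PD-1 inhibitor library right; the colour is log2(CPM + 1) and the printed number the level itself, without its interval. The highest Eln levels lie in vascular smooth muscle and arterial ECs, Ltbp2 stands out in the Wif1 Chad cluster, and glial cells of the PD-1 inhibitor library rest on 10 nuclei.

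Fbn1, which encodes the main fibrillin of adult microfibrils (chr2:125300594-125507993, minus strand, GRCm38), was highest in the Cilp Myoc cluster. It stood there at 2417 CPM (interval 2321 to 2516) in control and 2251 CPM (2161 to 2345) in PD-1 inhibitor nuclei. The Rgs17 Eya2 cluster followed at 1157 and 1106, and pericytes, the mural cells of capillaries, at 801 and 753. Both steps of the order lay outside counting error in both libraries. The intervals of pericytes and of the Wif1 Chad cluster (645 and 676) overlapped. Vascular smooth muscle had 489 and 344. Over the 17 groups in both libraries, 34 points that share their libraries, the genes with levels most like those of Fbn1 were Pkd1 (Pearson r = 0.84), Creb3l2 (0.82) and Fstl1 (0.82).

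Fbn2, the fibrillin best known from developing tissue, had another home. Its level in the Rgs17 Eya2 cluster was 230 CPM (208 to 253) in control and 312 CPM (282 to 344) in PD-1 inhibitor nuclei. In the Cilp Myoc cluster it was only 46.6 and 48.4. The control ratio of the Rgs17 Eya2 over the Cilp Myoc cluster was thus 4.93, against 0.479 for Fbn1, and the intervals of the log2 ratios (1.86 to 2.77 for Fbn2, -1.15 to -0.98 for Fbn1) were far apart. The Rgs17 Eya2 cluster alone held 72.3% and 70.7% of all Fbn2 UMIs. No UMI of Fbn2 was found in arterial ECs of either library (114 and 84 nuclei), which allows up to 23.7 and 27.1 CPM (3 counts of the total). Endocardial ECs, with 5.44 and 8.81 CPM, lay under these limits. The genes most like Fbn2 were Lrrc17 (r = 0.79), Gm32618 (0.77) and Tead3 (0.75), each weaker than for Fbn1.

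Eln, the elastic core itself (chr5:134702593-134747323, minus strand), had its highest levels per UMI in the wall of arteries, although fibroblasts held 52.3% and 46.9% of its UMIs. In vascular smooth muscle its control level was 4781 CPM (4432 to 5150) and its PD-1 inhibitor level 3536 CPM (3146 to 3961). Arterial ECs had 3158 (2855 to 3483) and 3565 (3222 to 3934). Smooth muscle was above arterial ECs in the control library, and the intervals of the pair overlapped in the PD-1 inhibitor library. The Rgs17 Eya2 cluster came next with 1472 and 1518, then the Cilp Myoc cluster with 1200 and 1202. Within mural cells the contrast was sharp, since pericytes had 116 and 75.8, which made a ratio of smooth muscle over pericytes of 41.3 in the control library (log2 5.36, 5.00 to 5.76). Arterial ECs had 8.37 times the level of capillary ECs there. Nuclei differed widely: the 694 control UMIs in smooth muscle came from 64 of 104 nuclei. Of the 298 UMIs in the PD-1 inhibitor library, from 28 of 53 nuclei, a single nucleus held 34.6% and 5 nuclei held 71.8%, against 9.80% and 36.5% in the control. The counting interval does not cover this. Pdlim7 (r = 0.86), Cavin3 (0.82) and Osmr (0.82) had levels most like Eln.

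The 3 fibulins divided between cell types. Fbln1, a basement membrane and elastic fibre protein, was highest in the Cilp Myoc cluster (923 CPM control, 1012 CPM PD-1 inhibitor) and next in mesothelial cells (730 and 803). Over the EC clusters it ran from 7.91 to 53.8 CPM, under the level in T and B cells (57.6 and 60.2). Fbln2, which binds both fibrillin and elastin, also led in the Cilp Myoc cluster, at 1712 (1631 to 1795) and 1920 (1837 to 2007). The Rgs17 Eya2 cluster had 564 and 661, a control ratio over Cilp Myoc of 0.329. Arterial ECs had 958 and 1318, against 92.4 and 130 in endocardial ECs.

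Fbln5, which recruits elastin to the microfibril scaffold, had control levels whose intervals overlapped in the 3 fibroblast clusters: 202 CPM (182 to 223) in Rgs17 Eya2, 212 (184 to 242) in Cilp Myoc and 249 (175 to 343) in Wif1 Chad. Among PD-1 inhibitor nuclei Cilp Myoc was above the others, with 339 against 284 in Rgs17 Eya2 (log2 -0.25 for Rgs17 Eya2 over Cilp Myoc, -0.47 to -0.04) and 214 in Wif1 Chad (-0.65, -1.19 to -0.17). Arterial ECs exceeded all of them with 791 (644 to 963) and 1110 (922 to 1324). Their ratio over capillary ECs was 25.1 in the control library (log2 4.63, 4.05 to 5.29). Glial cells of the PD-1 inhibitor library had 1124, but this was 16 UMIs in 4 nuclei, 10 of them in a single nucleus. The genes most like each fibulin were Medag, Twsg1 and R3hdm4 for Fbln1 (r = 0.81, 0.81 and 0.80), Arl1, Ccnyl1 and Cbx5 for Fbln2 (0.81, 0.79 and 0.77), and Col18a1, Thsd7a and Col8a1 for Fbln5 (0.79, 0.77 and 0.75).

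The 4 latent TGF-β binding proteins differed in where their levels were highest. Ltbp1, which carries latent TGF-β into the matrix, was highest in vascular smooth muscle with 1350 CPM (1168 to 1553) in control and 1887 CPM (1605 to 2204) in PD-1 inhibitor nuclei. Endocardial ECs had 400 and 359, and pericytes 62.4 and 27.8. Ltbp1 and Eln were the pair of members with the most similar levels over the groups (r = 0.81). The genes outside the set most like Ltbp1 were Pdlim3 (0.89), Itgbl1 (0.87) and Pdlim7 (0.86).

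Ltbp2, the member that does not bind latent TGF-β, had its highest level in the Wif1 Chad cluster. Its level there was 457 CPM (355 to 579) in control and 439 CPM (346 to 550) in PD-1 inhibitor nuclei. The Rgs17 Eya2 cluster had 14.6 and 10.2, a control ratio of 31.3 (log2 4.95, 4.31 to 5.67). The Cilp Myoc cluster had 84.0 and 34.8, and the ratio of Wif1 Chad over it was 5.44 and 12.6. The small Wif1 Chad cluster held 28.2% and 44.7% of all Ltbp2 UMIs, from 28 and 19 nuclei. In 5 nuclei lay 51.5% and 57.9% of the cluster's Ltbp2 UMIs. In the control library the larger Cilp Myoc cluster held more of all Ltbp2 UMIs, 34.4%. Hebp1 (r = 0.79), Mettl24 (0.76) and Nupr1 (0.73) were most like it.

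Ltbp3, also a carrier of latent TGF-β, was spread over many groups. Adipocytes (402 and 410), the Wif1 Chad cluster (356 and 451) and mesothelial cells (337 and 275) headed its order. In both libraries the intervals of neighbours among its highest 7 groups overlapped. The PD-1 inhibitor library had only 16 adipocyte nuclei, against 154. Golim4 (r = 0.84), Trip10 (0.83) and Copb1 (0.81) were most like Ltbp3.

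Ltbp4, which helps to deposit fibulin-5 and elastin on microfibrils, was highest in the Cilp Myoc cluster, with 2695 CPM (2594 to 2800) in control and 3188 CPM (3080 to 3298) in PD-1 inhibitor nuclei. Arterial ECs had 2176 (1927 to 2449) and 3086 (2768 to 3431), and lymphatic ECs 1848 (1687 to 2021) and 2061 (1869 to 2267). The intervals of arterial and lymphatic ECs overlapped in the control library. Those of the Cilp Myoc cluster and arterial ECs overlapped in the PD-1 inhibitor library. Slc43a3 (r = 0.85), Ppic (0.84) and Laptm4a (0.84) were most like Ltbp4.

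**Figure D3:**
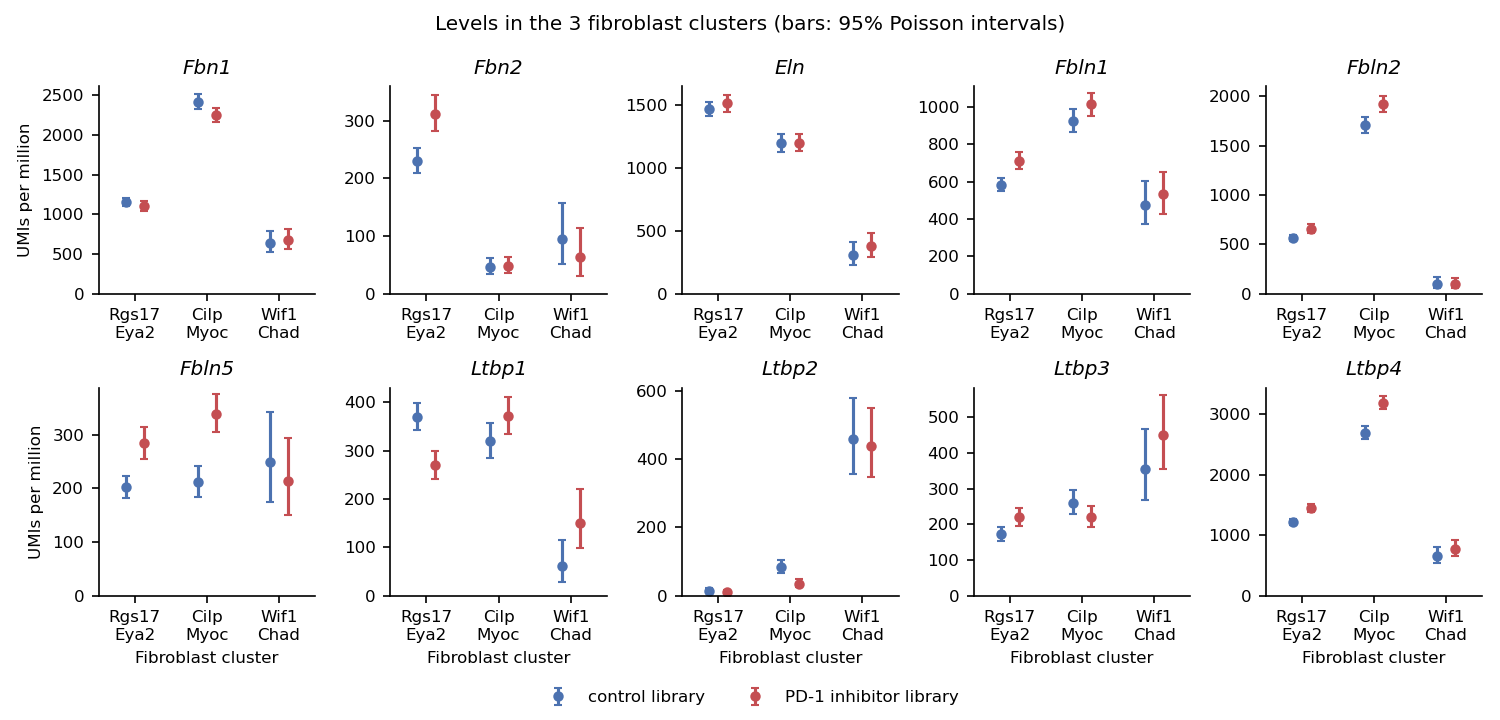
CPM (y axis, own scale for each gene) of the 10 genes in the 3 fibroblast clusters, control and PD-1 inhibitor library, with 95% Poisson intervals. Fbn1, Fbln2 and Ltbp4 are highest in the Cilp Myoc cluster, Fbn2 in Rgs17 Eya2 and Ltbp2 in Wif1 Chad, and Fbln5 lies between 202 and 249 CPM in the 3 control clusters and between 214 and 339 in those of the PD-1 inhibitor library.

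The comparison of the PD-1 inhibitor with the control library asked whether elastic fibre transcripts differed per UMI of the same cell type. In all fibroblasts together none of the 10 genes was past 1.5-fold in either direction, where 5.55% of the 10583 genes with at least 50 UMIs were past it upwards and 4.07% downwards. The median log2 ratio (PD-1 inhibitor over control) of the 10 was 0.18, beside -0.0021 for all genes. Fbln5 had the highest ratio: 619 control and 750 PD-1 inhibitor UMIs, or 207 and 302 CPM, gave 0.54 (0.39 to 0.70). Its thinned share of fibroblast nuclei was 8.72% and 11.2% (16.5% and 22.2% before thinning), against 0.241% and 1.45% in T and B cells. Ltbp4 had 1681 and 2124 CPM (log2 ratio 0.34, 0.28 to 0.39), and Fbln2 920 and 1146 (0.32, 0.24 to 0.39). The ratio of Fbln1 was 0.26 (0.17 to 0.35). The fibulins and Ltbp4 were thus higher in the PD-1 inhibitor library by more than counting error.

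Over all fibroblasts Fbn1 and Eln were close to level. For Fbn1 the levels were 1548 and 1552 CPM, and the log2 ratio was 0.00 (-0.06 to 0.07). Eln had 1324 and 1307, with a ratio of -0.02 (-0.09 to 0.05). Either interval leaves room for a difference of at most 0.09 on the log2 scale between these libraries. Ltbp1 was lower, at 337 and 304 (-0.15, -0.29 to -0.01). Fbn2 had 0.19 (0.00 to 0.38) and Ltbp3 0.17 (0.00 to 0.33), with lower limits that round to 0.00 but lie above 0. Ltbp2 had -0.24 (-0.59 to 0.09).

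Gene span moved with these ratios. In fibroblasts the median log2 ratio of all genes with at least 50 UMIs went from 0.32 in the shortest of 5 bins of gene span to -0.13 in the longest, and 7 of the 10 members belong to the longest bin. Relative to the median of their own bin, the ratios of Fbln5, Fbln2, Fbln1 and Ltbp4 were 0.67, 0.45, 0.39 and 0.32, and that of Fbn1 was 0.13. Ltbp1 then came to -0.02. What made the ratio depend on span was not tested. The summed level of the 13 fibroblast markers in fibroblasts was 39445 and 48471 CPM, and 11 of the 13 had a ratio above 0. Mural markers (11 of 11 found) stood at 426 and 469 there, and EC markers (12 of 12) at 741 and 682. Their part in the fibroblast ratios was not tested.

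**Figure D4:**
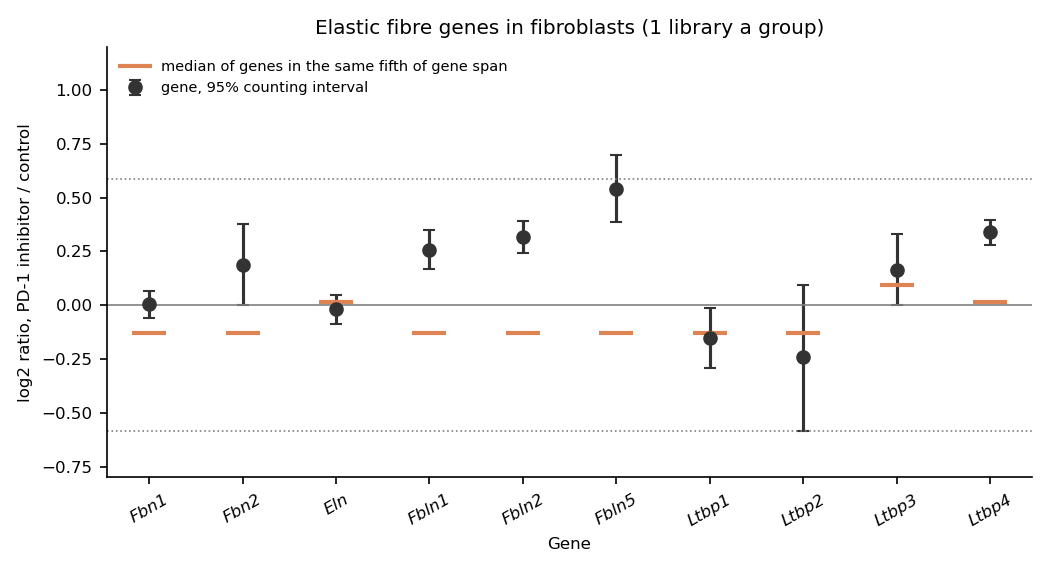
Log2 ratio (PD-1 inhibitor over control) of each gene in all fibroblasts with its 95% counting interval; orange marks give the median ratio of all genes in the same of 5 bins of gene span and dotted lines 1.5-fold. Fbln5, at 0.54, lies highest and under the 1.5-fold line, Fbn1 and Eln lie at 0, and the bin of longest genes has a median of -0.13.

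Taken by fibroblast cluster, the direction was not the same for every gene. Fbn1 was lower in Cilp Myoc (-0.10, -0.19 to -0.02), where centring by gene span turned it to 0.068, and had -0.06 (-0.16 to 0.03) in Rgs17 Eya2. Its level over all fibroblasts also depends on the share of the Fbn1-rich Cilp Myoc cluster, 29.6% of control and 36.3% of PD-1 inhibitor fibroblasts, and with the same mix of clusters in both libraries its ratio was -0.083 (0.00 without it). Fbln5 had a log2 ratio of 0.49 (0.28 to 0.71) in Rgs17 Eya2 and 0.68 (0.43 to 0.93) in Cilp Myoc. The Rgs17 Eya2 values depended on how the cluster was drawn: with nuclei of at least 500 genes only, Fbln5 there had -0.12, and Fbln1, at 0.29 in the main clustering, had -0.018, or -0.15 where the members took part in clustering. Over all fibroblasts both stayed above 0 under every alternative. Fbln2 (0.23 and 0.17) and Ltbp4 (0.24 and 0.24) were also higher in both. Fbn2 was higher in its home, the Rgs17 Eya2 cluster, with 425 and 399 UMIs from fewer nuclei in the latter (0.44, 0.24 to 0.64), and near level in Cilp Myoc (0.05, -0.55 to 0.67).

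Ltbp1 was lower in 1 of the large clusters. In Rgs17 Eya2 it had 369 and 270 CPM (-0.45, -0.64 to -0.26), whereas in Cilp Myoc it had 320 and 371 CPM (0.22) with an interval of -0.0026 to 0.44 that includes 0. The difference between the clusters was not tested. Ltbp2 was lower in Cilp Myoc, with 83 control and 36 PD-1 inhibitor UMIs (-1.26, -1.88 to -0.69). Of these UMIs, 34.9% and 44.4% lay in 5 nuclei. The thinned shares there were 2.73% (1.68 to 4.19%) and 1.40% (0.67 to 2.56%). In the Wif1 Chad cluster the Ltbp2 ratio was -0.06 (-0.55 to 0.44). Its thinned shares there were 20.6% (13.2 to 29.7%) and 8.64% (3.55 to 17.0%), at median depths of 1004 and 1756 UMIs before thinning. Immediate early genes were at 1340 and 357 CPM in Rgs17 Eya2 and at 1484 and 807 in Cilp Myoc. Their part was not tested.

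In ECs none of the 8 members with at least 50 UMIs was past 1.5-fold, beside 5.97% of genes upwards and 4.49% downwards, and their median was 0.21 beside 0.0063. Ltbp4 had 1234 and 1552 CPM (0.33, 0.27 to 0.39), and its ratio was above 0 in each of the 5 EC clusters, though with intervals that include 0 in lymphatic and valve ECs, and highest in arterial ECs (0.50, 0.27 to 0.74). Fbln2 had 0.46 (0.10 to 0.82) in arterial ECs. The arterial ratio of Fbln5, 0.49 (0.10 to 0.88), turned to -0.14 after thinning, and 18.7% of its 123 PD-1 inhibitor UMIs lay in a single nucleus. Likewise its ratio over all ECs, 0.28, turned to -0.050. In valve ECs, Eln had 82 and 179 UMIs, or 476 and 839 CPM (0.81, 0.43 to 1.21), against 0.08 (-0.05 to 0.20) in endocardial ECs. Fbn1 was lower in ECs as a whole (305 and 267 CPM, -0.19, -0.33 to -0.05), where genes of its bin of gene span had a median of -0.13. Endocardial ECs made up 48.0% of control and 58.2% of PD-1 inhibitor ECs. The summed fibroblast markers in ECs, all 13 detected, were 3520 and 4673 CPM, and their part in the EC ratios was not tested.

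In mural cells 2 of 6 members were past 1.5-fold downwards and none upwards, beside 8.83% and 8.12% of 5219 genes. These were Eln, with 1098 and 683 CPM (-0.68, -0.88 to -0.50), and Ltbp3, with 80 and 34 UMIs (-0.70, -1.34 to -0.12). The count was 1 with the same mix of clusters or after thinning and 0 with at least 500 genes per nucleus, and the Eln ratio was then -0.45, -1.22 and -0.44. Vascular smooth muscle was 17.5% of control and 12.6% of PD-1 inhibitor mural nuclei. Within smooth muscle the Eln ratio was -0.43 (-0.64 to -0.24), and it ran from -0.93 to -0.39 over the alternative settings. Few smooth muscle nuclei held most of the PD-1 inhibitor UMIs of Eln, as given above. There Ltbp1 was higher (0.48, 0.17 to 0.79), again with 73.0% of its 159 PD-1 inhibitor UMIs in 5 nuclei, and the sign of this ratio turned when each nucleus had equal weight (-0.026). Ltbp4 had 67 UMIs in 104 smooth muscle nuclei and 15 in 53 (-1.34, -2.29 to -0.55), but its thinned share of nuclei was 15.4% and 15.1%. Eln in smooth muscle had thinned shares of 51.9% and 39.6%. Cardiomyocyte markers, all 12 detected, were at 5663 and 7534 CPM in smooth muscle. Their part was not tested.

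Mesothelial nuclei were deeper in the PD-1 inhibitor library, with medians of 1291 and 1721 UMIs. None of 8 members was past 1.5-fold, beside 5.6% of 7283 genes upwards and 6.17% downwards, and their median was 0.14. Eln came nearest, with 510 control and 950 PD-1 inhibitor UMIs, or 641 and 919 CPM (0.52, 0.36 to 0.68). These came from 202 and 261 nuclei, none of which held more than 3.89% of them. After thinning, the share of mesothelial nuclei with an Eln UMI was 23.1% and 29.9% (41.7% and 56.6% before). Fbln2 had 347 and 447 CPM (0.36, 0.15 to 0.59). Ltbp3 was lower (337 and 275, -0.29, -0.54 to -0.05). Fibroblast markers in mesothelial cells were level, at 8790 and 8681 CPM.

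**Figure D5:**
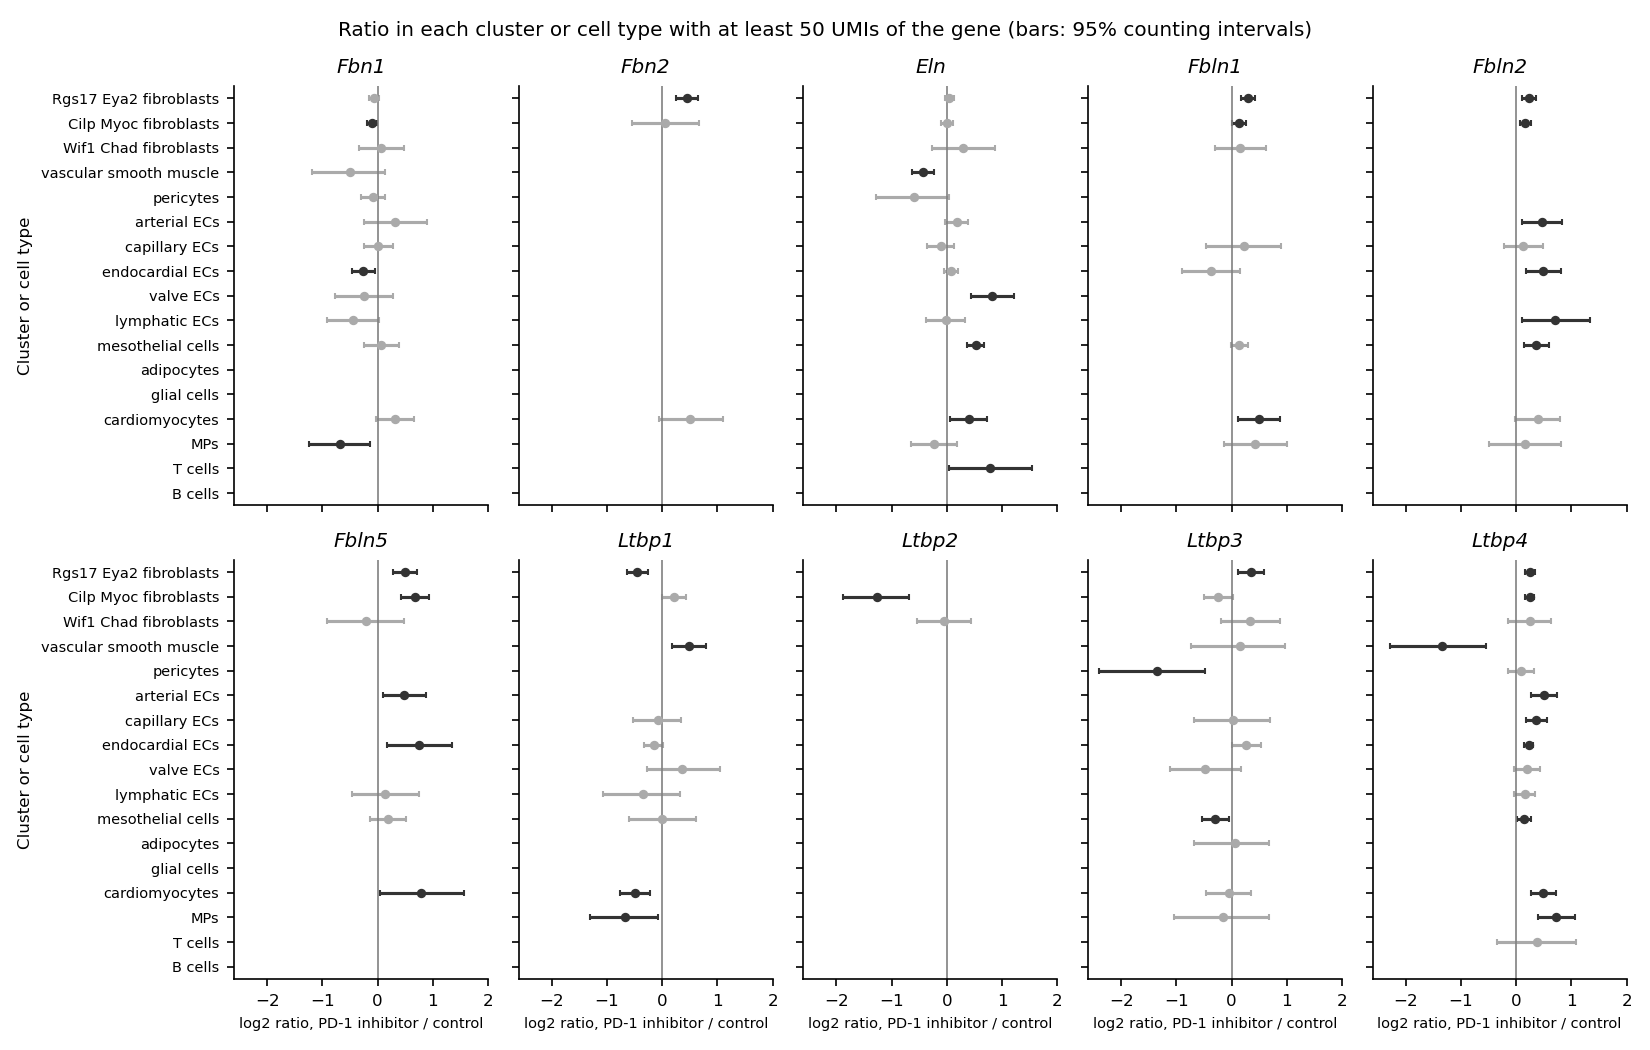
Log2 ratio (PD-1 inhibitor over control) of each gene in each of the 17 groups where it had at least 50 UMIs, with 95% counting intervals; black marks exclude 0. Fbln2 lies above 0 in all 9 groups shown and Ltbp4 in 13 of 14, while Eln, Ltbp1 and Ltbp3 have black marks on both sides. How often other genes had such a pattern was not counted.

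Cardiomyocytes and MPs held the members at or near the background. After thinning, 2.83% and 3.33% of cardiomyocytes and 3.59% and 2.15% of MPs had an Fbn1 UMI, under the 4.58% and 4.73% of T and B cells. In cardiomyocytes 1 of 9 members was past 1.5-fold upwards, beside 8.15% of genes, and none downwards, beside 8.17%. This was Fbln5, with 27 and 39 UMIs, whose thinned shares (0.236% and 1.30%) were under those of T and B cells (0.241% and 1.45%). In MPs 1 of 7 was past it upwards (Ltbp4, 137 and 172 UMIs), beside 7.09%, and 2 downwards (Fbn1 and Ltbp1), beside 6.73%. The thinned Ltbp4 shares of MPs, 5.75% and 8.39%, had intervals that overlapped those of T and B cells. These values were not read as expression. Ltbp1 was the exception in cardiomyocytes, with thinned shares of 4.48% and 3.79% against at most 1.82% in T and B cells. Its levels were 125 and 89.1 CPM (-0.49, -0.77 to -0.22), where genes of its bin of gene span had a median of -0.20.

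The wider elastic fibre pathway was counted in fibroblasts with 5 lists drawn from general knowledge, against the same 5.55% and 4.07% of genes past 1.5-fold. Of 25 microfibril and elastin-binding partners, 21 had at least 50 UMIs, 1 was past 1.5-fold upwards (Emilin2, an elastin microfibril interfacer, 0.62) and 1 downwards (Vtn, vitronectin, -1.28), and the median was 0.15. The partners with most UMIs were the proteoglycans Dcn (8511 and 12477 CPM, 0.55, 0.53 to 0.58) and Bgn (0.23, 0.16 to 0.30). Of 5 crosslinking enzymes, 4 had enough UMIs and 1 was past 1.5-fold, the lysyl oxidase Lox (117 and 148 UMIs, 0.60, 0.24 to 0.97). Loxl1, the lysyl oxidase-like enzyme with most UMIs, was level (790 and 801 CPM, 0.02, -0.07 to 0.11), and Loxl2 had 0.20. None of 11 genes for TGF-β, its anchors and its activators was past 1.5-fold. Itgb1 (0.21) and Itgb5 (0.0044) had the most UMIs among them.

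Among 10 elastic fibre degrading enzymes and inhibitors with enough UMIs, the cathepsin Ctsl was past 1.5-fold upwards (347 and 524 CPM, 0.60, 0.48 to 0.71) and Ctss, a cathepsin of macrophages, downwards (55 and 27 UMIs, -0.75). The gelatinase Mmp2 had 0.25 and its inhibitor Timp2 0.18. Among 7 elastin receptor and chaperone genes, none was past it upwards and 1 downwards, the copper transporter Atp7a, which loads lysyl oxidases with copper (252 and 130 UMIs, -0.69, -1.01 to -0.38). The integrin subunits Itga5 and Itga8 had -0.39 and -0.38.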

How the data were processed

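Nuclei were isolated from mouse hearts and libraries made with the GEXSCOPE single-nucleus kit. The deposited matrices give UMI counts as whole numbers, not normalized by the authors. The submitters' processing notes name GRCm38 (mm10), and the aligner, counter, strand setting and barcode calling are not given in the sources used here. Barcodes under 200 genes or over 20% mitochondrial UMIs were dropped. Scrublet doublets were removed (592 control, 308 PD-1 inhibitor). The rest were clustered with scanpy 1.11.5 (2000 variable genes without the 10 members, values scaled and clipped at 10, 30 components, 15 neighbours, Leiden resolution 1) and named from marker lists. Scaling was chosen after a first clustering had been seen. Fbn2, Eln and Fbln2 would have been among the variable genes.

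UMIs were summed by group and library and divided by all UMIs of the group, per 1000000, with exact Poisson intervals. Shares have Clopper-Pearson intervals. Log2 ratios add 0.5 UMI to each sum, with a conditional binomial interval. The calculation was checked on Poisson counts drawn from the fibroblast sums. These counts hold no spread between nuclei or animals, so the check does not cover such spread. Named genes were the members, in each pathway list those past 1.5-fold in fibroblasts and the 2 with most UMIs, the 3 genes most like each member among those with at least 200 UMIs, and leading cluster genes. The members and lists were chosen with earlier results of these data known. A member was counted against 1.5-fold only if its UMIs in the 2 libraries summed to 50 or more. Gene spans come from GENCODE M21, with 32522 genes matched. The libraries hold 13177525 and 10875248 UMIs in 10197 and 7967 barcodes.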

Additional observations from a re-analysis of the deposited data

Results flagged for a closer look

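Members whose ratio left counting error upwards in 1 group and downwards in another are given here; the difference between the groups was not tested, and each value rests on 1 library a group. For Eln the log2 ratio (PD-1 inhibitor over control) was 0.81 in valve ECs (82 and 179 UMIs) and -0.43 in vascular smooth muscle (694 and 298 UMIs). In 5 nuclei lay 34.1% of the 179 UMIs, and in 5 others 71.8% of the 298. For Ltbp1 the ratio was 0.48 in vascular smooth muscle, or -0.026 as a mean over nuclei. In MPs it was -0.67 (74 and 35 UMIs, where 1 nucleus held 24.3% of the control UMIs). Ltbp3 had 0.35 in the Rgs17 Eya2 cluster (319 and 281 UMIs) and -1.36 in pericytes (47 and 13 UMIs). Ltbp4 had 0.73 in MPs and -1.34 in vascular smooth muscle. Both members' shares of MP nuclei had intervals that overlapped those of T and B cells, so the MP values were not read as expression. For Ltbp4 the ratio was above 0 in 13 of the 14 groups with at least 50 UMIs, smooth muscle being the exception. The 14 include cardiomyocytes and MPs, where the level was at or near the background. How often other genes had such a pattern was not counted. The smooth muscle ratio rests on 67 and 15 UMIs, and the thinned shares of nuclei there were 15.4% and 15.1%.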

How the results depend on the processing

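Of 1438 log2 ratios recomputed under the alternatives, 1355 moved by less than counting error, 76 moved further without turning a ratio whose interval excluded 0, and 7 turned such a ratio. Among those not counted as turned, 94 had another sign than a reported ratio whose interval included 0. The 7 were Fbln1 in Rgs17 Eya2 fibroblasts (-0.15 with the members used in clustering, -0.018 with at least 500 genes per nucleus), Fbln5 in the same cluster (-0.12 with at least 500 genes), in ECs (-0.050) and in arterial ECs (-0.14) after thinning, Fbn1 in Cilp Myoc fibroblasts (0.068 when centred by gene span) and Ltbp1 in vascular smooth muscle (-0.026 as a mean over nuclei). The fibroblast share of member UMIs, 57.0% and 53.9%, was 54.1% and 52.2% with doublets kept, 58.3% and 55.3% with at most 5% mitochondrial UMIs, 57.9% and 56.9% after thinning, and 57.8% in the control with at least 500 genes. Counts past 1.5-fold moved as follows. In fibroblasts, 1 was lower after thinning and as a mean over nuclei, and 1 was higher when centred by gene span, against 0. In ECs, 1 was higher with a minimum of 20 UMIs or of 1, against 0. In mural cells, 0 were lower with at least 500 genes, 1 after thinning or with the same mix of clusters, against 2, and 1 was higher with a minimum of 1. In cardiomyocytes, 2 were higher with at least 500 genes or the same mix, 4 when centred by gene span and 0 as a mean over nuclei, against 1, and 1 was lower with a minimum of 1. In MPs, 0 were higher with doublets kept, 2 after thinning or with a minimum of 20, and 3 with a minimum of 1, against 1, while 1 was lower with doublets kept or as a mean over nuclei and 0 after thinning or when centred by gene span, against 2. The causes were not tested. Leaving out nuclei with shared barcodes was chosen after seeing the data. No paired analysis was possible because each group has 1 library. With 1 library a group, differences between animals cannot be told apart from differences between treatments.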
